A study of Rattus norvegicus with 6 samples.

Results

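The tumour necrosis factor (TNF) ligand and receptor superfamilies were examined in rat heart by a rule on gene names. The genes taken were Tnf, Lta, Ltb, Fas, Faslg, Cd40, Cd40lg, Cd27 and every gene named Tnfsf, Tnfrsf, Tnfaip or Traf followed by a digit. The array carried 58 probes for 52 such genes, among 26316 genes and unnamed transcripts. They comprised 16 ligands, 21 receptors, 9 genes with a Traf name and 6 with a Tnfaip name. Tnfaip3, Traf1 and Traf5 were not analysed here, because no probe bore these names.

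RNA labelled as whole heart was measured on 6 one-colour Agilent arrays, 3 from rats given AACO, whose letters the labels do not explain, and 3 from control rats. The AACO rats received 0.386 µg/g of AACO solution daily for 8 weeks, and the control rats received an equal amount of double-distilled water. Hearts were taken 24 h after dosing ended. The series text says that all animals had undergone TAC, the abbreviation commonly used for transverse aortic constriction, an operation that loads the left ventricle, so both groups share that operation and no unoperated heart was compared. That text calls the animals mice, whereas the sample labels and the array design are those of rat. Age, sex and strain are not given in the sources used here, and whether an array held 1 animal or a pool is not given either.

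TNF family ligands are mostly trimeric membrane proteins of immune and vascular cells, some of which are cut from the surface and circulate. Their receptors either carry a death domain, which recruits TRADD or FADD and can activate caspases, or bind TRAF adaptors, which lead to NF-kappaB and to the JNK and p38 kinases. In the heart, TNF itself is made by resident and infiltrating immune cells and by stressed cardiomyocytes, and the TWEAK receptor Fn14, encoded by Tnfrsf12a, is known as a receptor induced by growth factors and injury.

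The results turned on 4 genes, and the first 30 bases of each 60-base probe that measured them are shown because a one-colour array measures only the transcripts that contain the probe. Both probes of Tnfrsf1b are given, since they did not behave alike. Capitals are not used, as no part of a probe is set apart. Positions are those in the array files, on rat build rn4. No rn4 annotation was used here, so the exon or untranslated region in which each probe lies is not stated.
Tnf, plus strand, chr20:3663558-3663617: agccgtgactgtaatcgccctacgggtcat
Tnfrsf1b, minus strand, chr5:163666541-163666600: ctgtatgctggacagaattcctgcttataa
Tnfrsf1b, the other probe, minus strand, chr5:163664159-163664218: agtatcaagtgctgttactaactgttgagc
Tnfrsf12a, minus strand, chr10:12940627-12940686: ggggcagacagagagcctcaagctaggtca
Tnfrsf21, minus strand, chr9:13588833-13588892: aaatggctgcagctgtaagaactcctgtcc

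The 250 bases before the start of the same genes, from RefSeq on build GRCr8, are shown because Tnf and the receptors moved in opposite directions. The 3 motifs searched, on both strands, were the NF-kappaB consensus, the AP-1 motif TGANTCA and the TATA motif TATAAA, and capitals mark a match. No motif lay across another in these windows.
Tnf, chr20:3626435-3626684, plus strand: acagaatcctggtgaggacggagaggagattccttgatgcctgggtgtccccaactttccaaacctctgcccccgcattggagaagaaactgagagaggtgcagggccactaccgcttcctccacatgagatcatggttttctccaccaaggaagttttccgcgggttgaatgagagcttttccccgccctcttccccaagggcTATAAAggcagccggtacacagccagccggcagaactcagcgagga
Tnfrsf1b, chr5:162387412-162387661, minus strand: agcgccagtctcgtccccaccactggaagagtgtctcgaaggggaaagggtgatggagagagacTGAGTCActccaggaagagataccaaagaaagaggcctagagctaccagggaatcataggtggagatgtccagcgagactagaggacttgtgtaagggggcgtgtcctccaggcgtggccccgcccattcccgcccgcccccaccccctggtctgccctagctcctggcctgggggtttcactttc
Tnfrsf12a, chr10:13213649-13213898, minus strand: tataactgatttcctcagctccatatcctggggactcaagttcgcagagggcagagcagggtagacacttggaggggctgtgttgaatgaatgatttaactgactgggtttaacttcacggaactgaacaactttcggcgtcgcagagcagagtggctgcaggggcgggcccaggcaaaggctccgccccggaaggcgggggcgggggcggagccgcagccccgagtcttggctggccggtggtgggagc
Tnfrsf21, chr9:25451324-25451573, minus strand: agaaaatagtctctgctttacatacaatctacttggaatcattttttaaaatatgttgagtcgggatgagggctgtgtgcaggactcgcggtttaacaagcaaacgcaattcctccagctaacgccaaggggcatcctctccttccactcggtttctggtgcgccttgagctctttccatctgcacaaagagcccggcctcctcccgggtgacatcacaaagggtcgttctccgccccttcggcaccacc
In these windows Tnf held TATAAA, beginning 46 bases before the start, and Tnfrsf1b held TGAGTCA, beginning 186 bases before it. The letters of the motifs were found in neither of the windows of Tnfrsf12a and Tnfrsf21. Of the 52 genes, 40 matched a promoter by symbol. The NF-kappaB consensus lay in 8 of these (Fas, Lta, Ltb, Tnfrsf8, Tnfsf14, Traf3, Traf3ip2 and Traf7), against 6.41% of 27457 rat promoters of the same length. TGANTCA lay in 5 of the 40, against 6.36% of all promoters, and TATAAA in 9, against 13.1%. A match describes letters only.

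Signals are given as log2 of the processed signal minus the array's 75th percentile, so that 0 is the 75th percentile, and differences are AACO minus control. A gene is said to have risen or fallen where the Benjamini-Hochberg adjusted p of limma, over 17536 genes tested, was under 0.05. The series text mentions different donors, but the labels do not tie a donor to an array, so the p-values measure only the spread between these 6 samples, which may in part be technical. The share of spots well above background was 70.9% to 72.4% for AACO and 66.0% to 68.7% for control arrays, and the number of arrays limits the precision. All AACO arrays lay on slide 2 in scan 2 and all control arrays on slide 1 in scan 1, so slide, scan and treatment cannot be told apart in any comparison here. The cardiomyocyte markers were high on all arrays and 0 of 8 passed the test. AACO replicates 1 and 2 stood apart in the atrial myosin light chain Myl7, at 4.83 and 6.26 against −1.06 in AACO replicate 3 and −2.91 to −1.51 in controls, and in Sln, at 1.39 and 3.85 against −0.41 and a control range of −1.71 to −0.42. These are 2 of 6 atrial markers examined, none of which passed the test. Nr2f2 was also highest on those arrays, at −0.79 and −0.97 against −1.85 to −1.56 on the other 4. Myl4 and Tbx5 differed by −0.002 and 0.02 between the groups, and Nppa by −1.01, with its lowest value, 2.80, in AACO replicate 1.

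Among the 52 genes, 36 passed the filter on dim probes and were tested, 33 of them well above background on all 6 arrays. In this comparison 1 rose, Tnf, and 3 fell, Tnfrsf1b, Tnfrsf12a and Tnfrsf21. These 4 are 11.1% of the genes tested in the family, against 11.3% of all genes tested, so the share called was close to that of the array as a whole. The rise of 1 of 36 stood beside 6.32% of all genes (1108), and the fall of 3 of 36 beside 4.94% (867). That split of all genes moved with the scaling, to 991 higher and 1004 lower after quantile normalization, 875 and 1041 with the 75th percentile taken over probes instead of spots, and 5493 and 232 without scaling. The same 4 genes of the family were called under both of the first alternatives. The 3 arrays of each group did not overlap for 10 of the 36 genes, 4 higher and 6 lower with AACO, which is 27.8%, against 37.4% of all genes. Without Tnfsf15, a ligand that passed the filter through the AACO arrays alone, these were 9 of 35, with 3 higher. An unadjusted p under 0.05 was reached by 9 of the 36, against 30.8% of all genes. The median difference was −0.04 for the family and 0.04 over all genes. The differences of the 36 genes ran from −1.40 for Tnfrsf12a to 0.67 for Cd27, the receptor of CD70 on lymphocytes, which did not pass the test.

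By role, 7 of 8 tested ligands were measured higher with AACO and 10 of 14 tested receptors lower. Of all genes tested, 54.8% were measured higher, and against the median of all genes 5 of 8 ligands lay above it and 10 of 14 receptors below it. The medians were 0.19 for ligands and −0.34 for receptors. The test was passed by 1 ligand (12.5% of those tested) and 3 receptors (21.4%), against 11.3% of all genes. Tnfsf15, which passed the filter on dim probes through the AACO arrays alone, had to be higher, and without it 6 of 7 ligands were. Tnfsf10, among those 6, was well above background on 3 AACO arrays and 1 control array. The ligand medians and the other ligand counts given here still include Tnfsf15, so no shift of the ligands is read from them. The count of ligands measured higher was 5 to 7 of 8 under the other scalings and 8 without any scaling, a setting that raised the median of all genes to 0.52. Receptors measured lower numbered 10 or 11 of 14 under those scalings but 3 without scaling, where 10 of 14 still lay below the median of all genes. Without AACO replicates 1 and 2, 4 of 8 ligands were measured higher with a median of 0.01, and 10 of 14 receptors lower with a median of −0.22. That fit was chosen after seeing the data and leaves 1 AACO array, so its counts are those of a single array against the controls. The genes with a Traf or Tnfaip name had medians of −0.03 and −0.18, and none of the 14 tested passed the test.

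**Figure D1:**
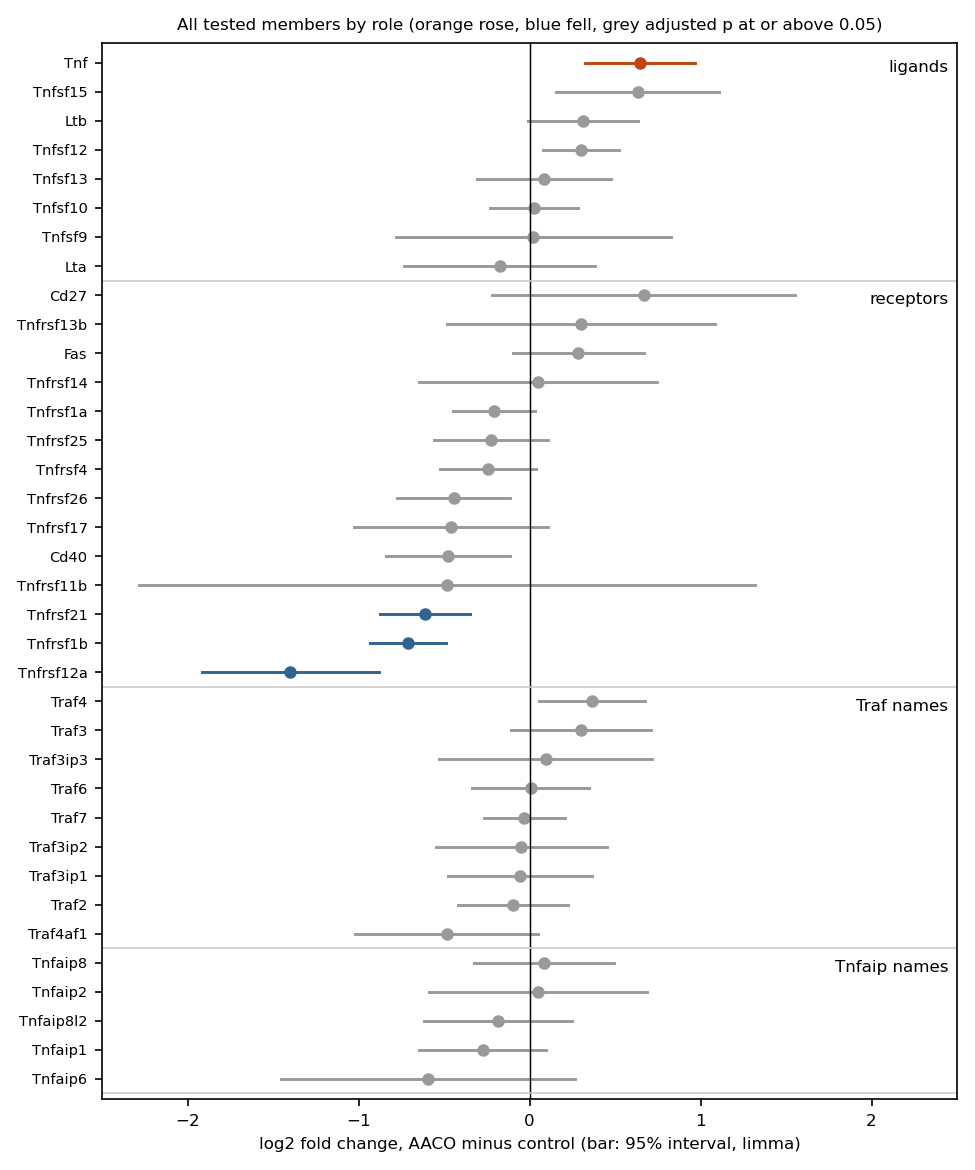
Log2 fold change, AACO minus control, of the 36 tested TNF ligand and receptor genes and genes with a Traf or Tnfaip name, grouped by role, with 95% intervals from limma. Tnf is the 1 gene that rose (orange), Tnfrsf12a, Tnfrsf1b and Tnfrsf21 fell (blue), and the intervals of most others include 0.

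Tnf, the ligand that gives the family its name, rose. Its level was −2.67, −2.73 and −2.68 on the AACO arrays and −3.14, −3.58 and −3.30 on the control arrays. Every AACO array lay above every control array, and the AACO values lay within a narrow band. The difference was 0.65 ± 0.13 (SE; 95% interval 0.33 to 0.97), a 1.56-fold higher signal (adjusted p = 0.0334, limma). The call was lost without AACO replicate 1, 2 or 3 or control replicate 2 or 3 in turn (adjusted p 0.0554 to 0.109), with differences of 0.52 to 0.67, and without AACO replicates 1 and 2 together the difference was 0.66 (adjusted p = 0.378). With normexp background correction it was 0.38 (adjusted p = 0.0641).

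The probe of Tnf lies on chromosome 20 between those of Lta, which encodes lymphotoxin alpha, and Ltb, whose product anchors lymphotoxin at the membrane, all within 7.02 kb. Ltb measured −2.30, −2.28 and −2.65 with AACO and −2.61, −2.77 and −2.78 in controls. Its difference was 0.31 ± 0.13 (SE, adjusted p = 0.170). Lta measured −4.22, −4.30 and −4.07 with AACO and −4.55, −3.72 and −3.80 in controls, a difference of −0.17 ± 0.23 (adjusted p = 0.642). Both genes overlapped between the groups, so of the 3 neighbours Tnf alone passed the test. Whether Tnf differed from its neighbours in response was not tested.

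Tnfsf12 encodes TWEAK, the ligand of Fn14. It measured 2.76, 2.72 and 2.64 with AACO and 2.38, 2.36 and 2.48 in controls. The groups did not overlap, but the difference of 0.30 ± 0.09 did not pass the test (SE; 95% interval 0.08 to 0.53; adjusted p = 0.0848). Tnfsf13, the gene of the B cell factor APRIL, whose probe shares a span of 3.26 kb with that of Tnfsf12, differed by 0.09 (95% interval −0.31 to 0.48).

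Tnfsf15, the endothelial ligand TL1A, was dim. It measured −6.12, −6.24 and −6.63 with AACO, well above background on all 3 arrays. On the control arrays it was −6.65, −7.00 and −7.23 and not well above background on any. Taken against the lowest signals well above background, the AACO signal was at least 1.31-fold higher under this scaling. The measured difference was 0.63 (adjusted p = 0.0900, limma) and went down to 0.12 among the alternatives. Since the probe entered the test only through the AACO arrays, nothing is read from that p or that fold. The difference of Tnfrsf25, which encodes its receptor DR3, was −0.23 (95% interval −0.56 to 0.11).

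Tnfsf10 encodes TRAIL, a ligand of death receptors. It measured −5.82, −5.74 and −5.98 with AACO and −5.94, −5.78 and −5.89 in controls, where 1 of 3 arrays was well above background. Its difference was 0.03 ± 0.11 (95% interval −0.23 to 0.28), and its sign turned under 5 of the 19 alternatives that gave it a value. The remaining tested ligand, Tnfsf9 (4-1BB ligand), differed by 0.02 with a wide interval of −0.78 to 0.83.

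The other 8 ligands were not tested. Faslg (Fas ligand), Cd40lg (CD40 ligand), Tnfsf11 (RANKL) and Tnfsf18 (GITR ligand) were not well above background on any array. Tnfsf13b, the gene of the B cell factor BAFF, Tnfsf14 (LIGHT) and Tnfsf8 (CD30 ligand) were on 2 arrays each, and Tnfsf4 (OX40 ligand) on 1. Probes of Faslg, Tnfsf18 and Tnfsf4 lie within 423 kb on chromosome 13. No direction is read from these signals.

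**Figure D2:**
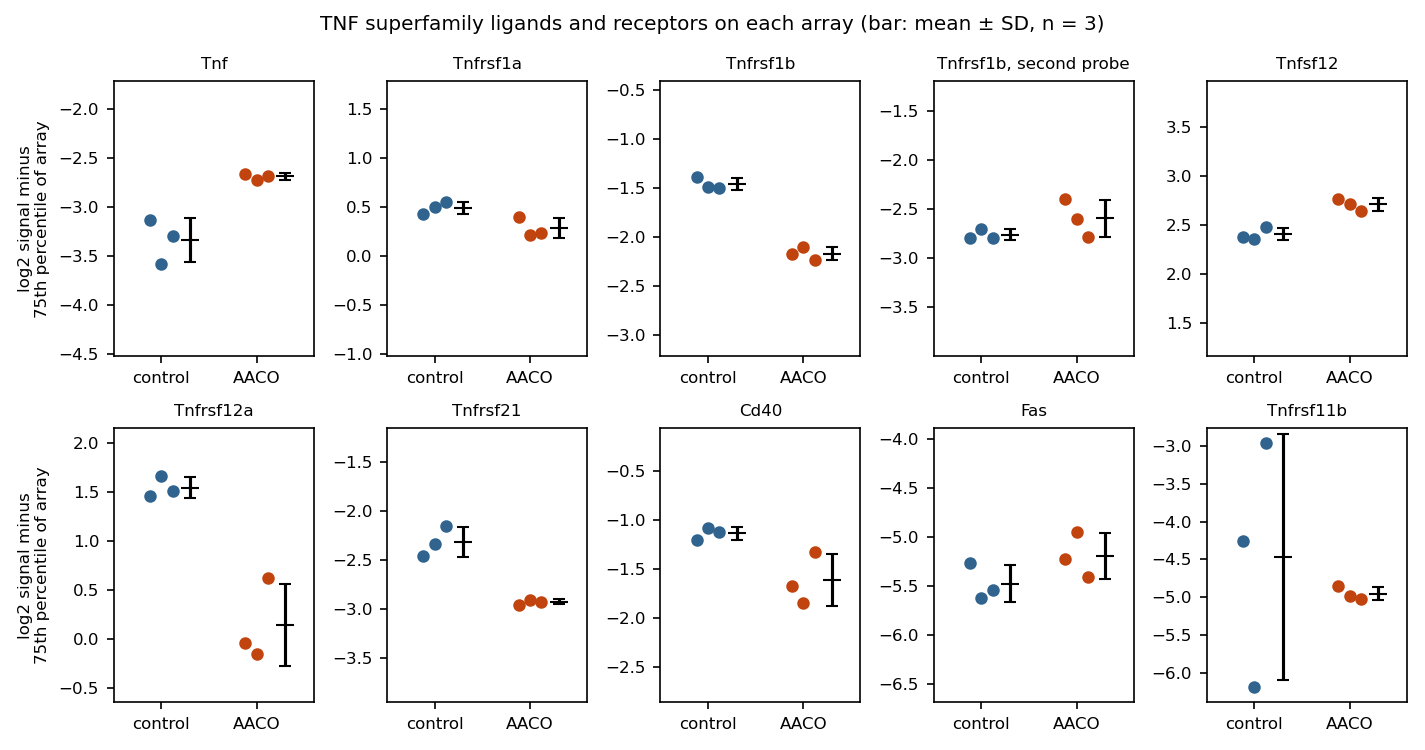
Level of 9 genes on each array, as log2 signal minus the array's 75th percentile, for the 3 control arrays (blue) and the 3 AACO arrays (orange), with the mean ± SD (n = 3) beside them; each panel has its own axis range. The AACO arrays of Tnf lie above and those of Tnfrsf1b, Tnfrsf12a and Tnfrsf21 below all control arrays, while the other probe of Tnfrsf1b overlaps and the control arrays of Tnfrsf11b spread from −6.19 to −2.96.

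Tnfrsf12a had the largest difference among the 36 genes. Its product Fn14 is the small TWEAK receptor, which signals through TRAF adaptors and has no death domain. Its level was −0.04, −0.15 and 0.63 with AACO and 1.46, 1.66 and 1.52 in controls. All AACO arrays lay below all control arrays, with AACO replicate 3 nearest to the controls. The difference was −1.40 ± 0.21 (SE; 95% interval −1.92 to −0.88), a 2.64-fold lower signal (adjusted p = 0.0165, limma). Without AACO replicate 1, AACO replicate 2 or control replicate 3 in turn the adjusted p was 0.0660, 0.0674 and 0.0527. Without AACO replicates 1 and 2 together, the arrays of high Myl7 and Sln, the difference was −0.92 (adjusted p = 0.242), and with the level of those genes as a covariate it was −0.85 (adjusted p = 0.184).

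The ligand of Fn14 was thus measured higher without passing the test while its receptor fell. No test compared the 2 genes with each other.

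TNF acts through TNFR1, encoded by Tnfrsf1a and present on nearly all cells, and through TNFR2, encoded by Tnfrsf1b and found mainly on immune and endothelial cells. Tnfrsf1a measured 0.40, 0.22 and 0.24 with AACO and 0.43, 0.50 and 0.55 in controls. The groups did not overlap, but the difference was small, at −0.21 ± 0.10 (SE; 95% interval −0.45 to 0.03), and did not pass the test (adjusted p = 0.209).

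Tnfrsf1b fell at its brighter probe. That probe measured −2.17, −2.11 and −2.24 with AACO and −1.39, −1.49 and −1.51 in controls, with no overlap. The difference was −0.71 ± 0.09 (SE; 95% interval −0.93 to −0.49), a 1.64-fold lower signal (adjusted p = 0.0117, limma). It was −0.74 without AACO replicate 2 (adjusted p = 0.0518) and −0.78 without AACO replicates 1 and 2 (adjusted p = 0.244), and without scaling between arrays it was −0.22 (adjusted p = 0.489).

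The other probe of Tnfrsf1b, 2.38 kb further along the minus strand, did not fall. It measured −2.40, −2.60 and −2.78 with AACO and −2.80, −2.70 and −2.79 in controls, a difference of 0.17 ± 0.12 (SE; 95% interval −0.13 to 0.47; adjusted p = 0.401 over all probes). The log2 gap between the probes within an array averaged 0.42 with AACO (SD 0.17, n = 3) and 1.30 in controls (SD 0.10, n = 3). The gaps did not overlap, and the exact two-sided permutation test gave p = 0.1, the smallest value that 20 permutations allow. The gap was tested for this gene alone, whose probes did not behave alike, so nothing is read from that p. With the mean of both probes the gene differed by −0.27 (adjusted p = 0.123), so the fall of Tnfrsf1b holds for 1 of its 2 probes.

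Tnfrsf21 encodes DR6, a receptor with a death domain. It measured −2.95, −2.90 and −2.92 with AACO and −2.46, −2.33 and −2.15 in controls, on a probe averaged over 10 spots. All AACO arrays lay below all control arrays. The difference was −0.61 ± 0.11 (SE; 95% interval −0.88 to −0.35), a 1.53-fold lower signal (adjusted p = 0.0238, limma). The call was lost without AACO replicate 1 or 2 or control replicate 2 or 3 in turn (adjusted p 0.0551 to 0.0881), with differences of −0.62 to −0.53, and without scaling the difference was −0.13 (adjusted p = 0.695). Its other probe was not well above background on any array and gives no check.

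Cd40 encodes a receptor of B cells, macrophages and endothelium. It measured −1.67, −1.85 and −1.32 with AACO and −1.20, −1.08 and −1.13 in controls. The groups did not overlap, but the difference of −0.48 ± 0.15 did not pass the test (SE; adjusted p = 0.0908). Without AACO replicate 3 it was −0.62 and passed (adjusted p = 0.0314), and its other probe, 0.251 kb away, differed by −0.15 (95% interval −0.54 to 0.25). Tnfrsf26, a rodent receptor with a non-overlapping difference of −0.44 ± 0.14 (SE), did not pass either (adjusted p = 0.0861).

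Fas, the death receptor of Fas ligand, was dim but well above background on all arrays. It measured −5.22, −4.95 and −5.41 with AACO and −5.26, −5.62 and −5.54 in controls. Its difference of 0.28 ± 0.16 did not pass the test (SE; adjusted p = 0.275), and a probe 15.2 kb away differed by 0.27. Both probes of Fas thus gave nearly the same value.

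Tnfrsf11b encodes osteoprotegerin, a secreted decoy that binds RANKL and TRAIL. It measured −4.85, −4.99 and −5.02 with AACO and −4.25, −6.19 and −2.96 in controls. The control arrays spread over more than the whole AACO range on both sides, so the difference of −0.48 had an interval of −2.28 to 1.32 (adjusted p = 0.696), and without control replicate 3 it was 0.27. That interval holds differences as large as those of the 3 receptors that fell.

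The remaining tested receptors did not pass the test. Tnfrsf17 (BCMA) and Tnfrsf4 (OX40) differed by −0.46 and −0.25, and Tnfrsf13b (TACI) and Tnfrsf14 (HVEM) by 0.30 and 0.05. Cd27 was well above background on all AACO arrays but on 1 of 3 control arrays, with control values from −6.91 to −5.52 and an interval of −0.22 to 1.55. Of the 7 receptors not tested, Tnfrsf10b (a TRAIL receptor), Tnfrsf11a (RANK), Tnfrsf18 (GITR), Tnfrsf8 (CD30) and Tnfrsf9 (4-1BB) were well above background on no array, and Tnfrsf13c (the BAFF receptor) and Tnfrsf19 on 1. For TRAIL with Tnfrsf10b, RANKL with RANK, and CD40 ligand and Fas ligand with their receptors, at least 1 partner of each pair gave no testable signal.

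All 9 genes with a Traf name were tested. Traf4, an adaptor of epithelial and developing tissues, measured −4.83, −5.09 and −4.99 with AACO and −5.14, −5.44 and −5.42 in controls. Its groups did not overlap, and its difference of 0.36 ± 0.13 did not pass the test (SE; adjusted p = 0.115). Traf3, an adaptor that restrains the non-canonical NF-kappaB pathway, measured −0.73, −1.38 and −1.09 with AACO and −1.34, −1.37 and −1.39 in controls. Its difference was 0.30 ± 0.17 (SE; adjusted p = 0.275), and its other probe gave 0.24. Traf4af1, which RefSeq now names Knstrn, a gene of the mitotic spindle, measured −3.74, −4.30 and −4.06 with AACO and −3.93, −3.47 and −3.24 in controls, a difference of −0.49 ± 0.22 (SE; adjusted p = 0.198). The central adaptors Traf2 and Traf6 differed by −0.10 (95% interval −0.42 to 0.23) and 0.01 (−0.34 to 0.35). The intervals of Traf3ip1, Traf3ip2, Traf3ip3 and Traf7 likewise included 0, with differences from −0.06 to 0.09.

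Of the 6 genes with a Tnfaip name, 5 were tested and all overlapped between the groups. Tnfaip6, whose product TSG-6 binds hyaluronan, measured −6.00, −5.60 and −6.65 with AACO and −5.86, −5.75 and −4.87 in controls. Its difference was −0.59 ± 0.36 (SE; adjusted p = 0.307). Tnfaip1 measured −1.61, −1.50 and −1.45 with AACO and −1.55, −1.02 and −1.16 in controls, a difference of −0.28 ± 0.15 (SE; adjusted p = 0.277). Tnfaip8l2, a gene known for restraining innate immune responses, measured −1.95, −2.06 and −2.41 with AACO and −2.21, −1.96 and −1.70 in controls, a difference of −0.18 ± 0.18 (SE; adjusted p = 0.524). Tnfaip8 and Tnfaip2 differed by 0.09 and 0.05, and Tnfaip8l3 was well above background on no array.

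**Figure D3:**
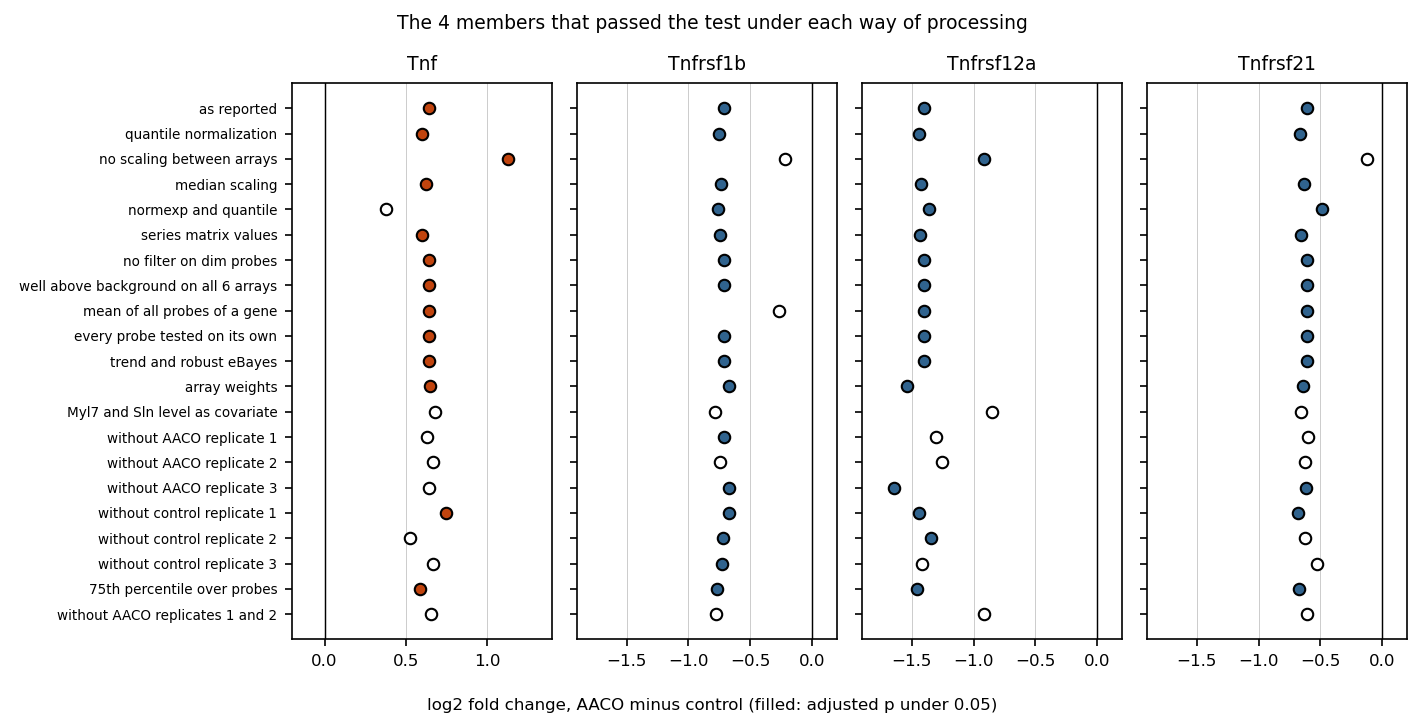
Log2 fold change, AACO minus control, of the 4 genes that passed the test, as reported and under each of 20 alternatives; filled points have an adjusted p under 0.05. All points of a gene lie on the same side of 0, and Tnf is called in 12, Tnfrsf1b and Tnfrsf12a in 15 each and Tnfrsf21 in 13 of the alternatives. Tnfrsf1b is shown by its brighter probe, except under the mean of all probes. Its other probe, at 0.17, is not plotted alone. Some alternatives keep the same probe and scaling and could not turn a sign.

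Several of these genes are expressed by immune and vascular cells, and the markers of some of those cells moved with the treatment. Of 12 macrophage markers, 9 fell, against 4.94% of all genes, with a median difference of −1.14. Their summed level, in units of the array's 75th percentile, was 14.9 to 16.1 with AACO and 24.9 to 37.2 in controls. In whole tissue fewer cells of a type and less RNA per cell cannot be told apart. Of the endothelial markers 0 of 8 passed, with a median of −0.26 and summed levels of 25.8 to 26.9 against 28.8 to 31.3. The part of macrophage and endothelial RNA in the differences of Tnf, Tnfrsf1b, Tnfrsf12a, Tnfrsf21 and Cd40 was not tested. Of the tested neutrophil markers 1 of 4 fell (Retnlg), while the median of the 4 was −1.50. The groups did not overlap for 3 of 4, against 37.4% of all genes. Summed levels of the neutrophil markers were 0.330 to 0.872 with AACO and 1.103 to 1.632 in controls. Their part in these differences was not tested either. Of the tested T cell markers 1 of 6 (Cd4) fell, while 4 of 6 were measured higher and the median was 0.14. Of the B cell markers 0 of 1 fell, the other 6 B cell markers being dim. Among fibroblast, smooth muscle and mast cell markers 0 of 7, 0 of 5 and 0 of 3 passed. All 5 smooth muscle markers did not overlap between the groups, against 37.4% of all genes. Of these, 4 were higher and Rgs5 was lower, at −0.34, with a median of 0.63 over the 5. Of the tested adipocyte markers 1 of 2, Fabp4, fell. The other, Adipoq, was measured higher by 1.17 without passing the test. Its AACO values were −7.43, −2.97 and −7.42, and its control values ran from −7.76 to −6.36.

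Around the receptors, 8 lists of partner and target genes held 83 genes, of which 67 were tested. Of these 2 rose and 6 fell, which is 11.9%, close to the 11.3% of all genes, and their median was −0.04. The TNF superfamily genes whose names the rule does not catch gave 0 of 3 tested (Ltbr, Ngfr and Relt), with Ngfr, the nerve growth factor receptor, at 0.93 (adjusted p = 0.138). Among the 5 genes of TNF shedding, Rhbdf2, the partner that brings the protease ADAM17 to the surface, fell by 0.38 (adjusted p = 0.0496). It was just inside the threshold and was lost in each of the 6 fits that leave out 1 array (adjusted p 0.0647 to 0.143), and it was at 0.11 without scaling. Adam17 itself differed by −0.16.

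At the receptor's cytoplasmic side, 1 of 10 tested adaptors, kinases and caspases changed. Fadd, the adaptor of death domains, measured −5.16, −4.91 and −4.57 with AACO and −3.90, −4.17 and −4.20 in controls, and it fell by 0.79 ± 0.18 (SE; adjusted p = 0.0407). It was lost without every array in turn except AACO replicate 3 (adjusted p 0.0760 to 0.130), and its difference was −0.48 without AACO replicates 1 and 2. It was also lost after quantile normalization, median scaling or no scaling, with the series matrix values and with no filter on dim probes. The executioner caspase Casp6 differed by 0.39 (adjusted p = 0.0524), and the initiator caspase Casp8 by −0.16.

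In the canonical NF-kappaB list 1 of 12 tested genes changed. Tab1, a partner of the kinase TAK1, measured 1.65, 1.69 and 1.59 with AACO and 0.99, 1.09 and 1.15 in controls, and it rose by 0.57 ± 0.09 (SE; adjusted p = 0.0196). With the mean of its probes the rise was 0.29 (adjusted p = 0.113), and the call was also lost without AACO replicate 1, AACO replicate 2 or control replicate 3 (adjusted p 0.0528 to 0.0850). The kinase gene Ikbkb and the inhibitor gene Nfkbia, itself a target of NF-kappaB, differed by −0.60 (adjusted p = 0.0551) and −0.64 (adjusted p = 0.0924). None of 4 tested genes of the non-canonical branch passed, and Birc2, which encodes the ubiquitin ligase cIAP1, was at −0.53 (adjusted p = 0.0761).

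Among the 10 tested genes of ubiquitin editing and TRAF partners, Tnip2, whose product ABIN-2 binds the deubiquitinase A20, fell by 0.67 ± 0.14 (SE; adjusted p = 0.0343). It was lost without AACO replicate 1 or 2 or control replicate 2 or 3 (adjusted p 0.0823 to 0.117), and its difference was −0.43 without AACO replicates 1 and 2 and −0.19 without scaling. In the JNK and p38 branch 1 of 9 tested genes changed. Map2k6, a kinase that activates p38, measured −2.06, −2.09 and −2.45 with AACO and −3.72, −3.51 and −3.31 in controls. It rose by 1.32 ± 0.16 (SE; adjusted p = 0.00987), and the call was lost without AACO replicate 2 (adjusted p = 0.0522). Fos had a larger measured difference, 2.53, with too wide a spread to pass (adjusted p = 0.128).

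Of the genes that TNF is known to induce in vessel walls and in leukocyte recruitment, 14 were tested. Of these 3 fell and 0 rose, against 4.94% and 6.32% of all genes, and their median was −0.39 against 0.04 over all genes. The list's median was 0.10 without scaling between arrays, where 10 of 14 still lay below the median of all genes. Those that fell were the chemokine genes Ccl2, Ccl7 and Cxcl2. Ccl2, the main attractant of monocytes, measured −1.86, −2.40 and −2.35 with AACO and −1.05, −0.90 and −0.43 in controls, a fall of 1.41 ± 0.22 on the log2 scale (SE; adjusted p = 0.0165). Ccl7 fell by 1.37 ± 0.25 (adjusted p = 0.0245). Cxcl2, an attractant of neutrophils, was well above background on 1 of 3 AACO arrays and on all control arrays. It fell by 2.41 as measured (adjusted p = 0.0192), and with each AACO array set no lower than its lowest signal well above background the fall was at least 2.11. The call was lost for Ccl2 without AACO replicate 2 (adjusted p = 0.0748), and for Cxcl2 without AACO replicate 2 or control replicate 3 (adjusted p 0.0528 and 0.0529). For Ccl7 it was lost without AACO replicate 2 or 3 or control replicate 2 or 3 (adjusted p 0.0515 to 0.0926). The adhesion genes Vcam1, Icam1, Sele and Selp differed by 0.47, −0.27, 0.06 and −0.08, and none passed. The macrophage markers, of which 9 of 12 fell, and the neutrophil markers, with a median of −1.50, moved with these chemokines, and their part was not tested.

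**Figure D4:**
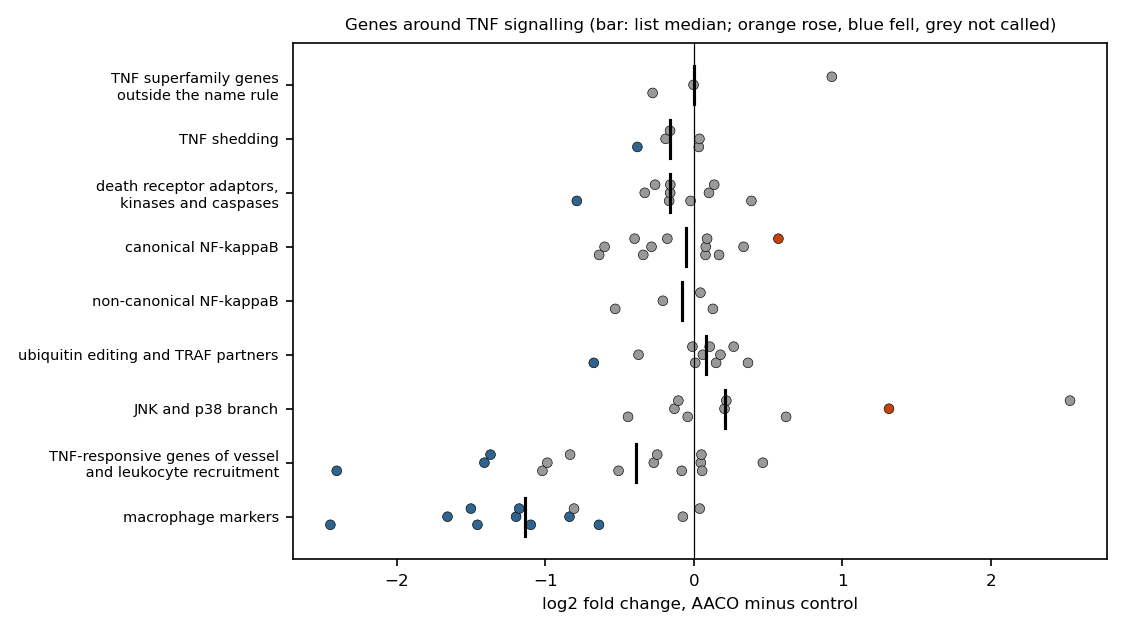
Log2 fold change, AACO minus control, of the tested genes in 8 lists around TNF signalling and of the macrophage markers; each point is a gene and the black bar is the list's median. The 3 blue points among the TNF-responsive genes are Ccl2, Ccl7 and Cxcl2, and 9 of 12 macrophage markers fell.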

How the data were processed

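Per the file headers, the 6 arrays (3 AACO, 3 control) were scanned and quantified by Feature Extraction 10.7.1.1 from Agilent. The intensity the authors deposited per spot is the processed signal, corrected for background and not scaled between arrays. The authors also deposited log2 values of the same arrays in a series matrix, whose processing is not given in the sources used here. Each of its columns had a median of 6.77 and correlated with log2 of the scanner signal at r of 0.998 or more, so its scale and direction were taken as those of the scanner values, while its centring method stays unknown. It served as an alternative, and its fit gave 986 genes that rose and 1001 that fell, near the 991 and 1004 of quantile normalization. These 2 alternatives are therefore not separate checks.

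Spots marked as outliers and control spots were left out, and spots of a probe were averaged on log2. The array's 75th percentile over non-control spots was subtracted. Of 30367 probes, 20112 well above background on at least 3 of 6 arrays were kept, and a gene was its probe of highest mean signal. limma 3.58.1 (lmFit, eBayes) in R 4.3.3 compared the groups over 17536 genes, two-sided, with Benjamini-Hochberg adjustment. The fit was tested on simulated data. No pairing of arrays is given by the labels. For a fold marked "at least", each dim array entered with its own signal or the lowest signal well above background, whichever was higher, before averaging.

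The members, lists and tests were chosen with earlier results of these data known. Genes given array by array were those with adjusted p under 0.05, the 3 of smallest p in each role, and set ligand and receptor pairs; in each pathway list, up to 4 that passed, otherwise the 1 of smallest p. Values of other genes were added after they were seen. Alternatives changed the scaling, background correction, dim-probe filter, probe rule, variance model and arrays, and 2 were chosen after seeing the data.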

Additional observations from a re-analysis of the deposited data

How the results depend on the processing

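Of 20 alternatives, all kept the direction of Tnf, Tnfrsf1b, Tnfrsf12a and Tnfrsf21, and the calls held in 12, 15, 15 and 13 of them. These are not 20 separate checks, since some kept the same probe and scaling and could not turn a sign. Tnf stayed at 0.65 under the other dim-probe filters, the other probe rules and trend and robust eBayes. The other probe of Tnfrsf1b, at 0.17, was not an alternative on its own. With 1 array left out at a time, Tnf was called in 1 of 6 fits, Tnfrsf1b in 5, Tnfrsf12a in 3 and Tnfrsf21 in 2. The number of arrays and the confounding of slide with treatment limit all of these results, and dim probes limited 16 genes. Over the 19 tested family genes given by array, 330 values kept their direction and their side of the threshold, 25 lost it, 10 passed it newly and 13 changed sign. Only Tnf, Tnfrsf1b, Tnfrsf12a and Tnfrsf21 had a call to lose, so for the others staying uncalled counts among the 330. Leave-one-out fits gave 108 to 1225 genes that rose and 148 to 937 that fell, 0 to 1 and 0 to 4 in the family, and 0 to 3 and 0 to 5 in the pathway lists.

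Without scaling between arrays, 5493 genes rose and 232 fell, 9 and 1 in the family and 12 and 3 in the pathway lists. There the family genes called were Cd27, Fas, Ltb, Tnf, Tnfrsf13b, Tnfsf12, Tnfsf15, Traf3 and Traf4, all higher, and Tnfrsf12a, lower; Tnfrsf1b was then at −0.22 (adjusted p = 0.489) and Tnfrsf21 at −0.13 (adjusted p = 0.695). The signs that turned under it were those of Tnfaip1 (0.21), Tnfaip8l2 (0.30), Traf4af1 (0.00068), Tnfrsf1a (0.28), Tnfrsf11b (0.0045), Cd40 (0.0096) and Lta (0.31), where the median gene moved up by 0.49 from its scaled value. Array weights gave 1786 and 1325 genes, 2 and 5 in the family (Cd40, Tnfrsf26 and Tnfsf15 added) and 4 that rose in the lists. No filter on dim probes gave 1401 that fell, with Tnfsf11, dim on all arrays, added in the family. Trend and robust eBayes gave 2 that rose in the family (Tnfsf12 added), normexp 0, with Tnf lost. The mean of all probes of a gene left 1 list gene that rose.

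With the level of Myl7 and Sln as a covariate, 0 genes rose and 0 fell by limma, with 2276 genes and 8 of the family at an unadjusted p under 0.05. Without AACO replicates 1 and 2, chosen after seeing the data, 0 rose and 0 fell, with 2216 genes and 5 of the family at that unadjusted p; this fit leaves 1 AACO array, assumed to vary like the controls, and both fits have fewer residual degrees of freedom. Both counts were 0 in the family and in the lists. Tnfsf10 turned to −0.14 with the covariate, −0.11 without AACO replicates 1 and 2 and −0.035 with the percentile over probes, also added after seeing the data. Its leave-one-out values ran from −0.028 to 0.093, below 0 without AACO replicate 2 or control replicate 1 (−0.0088). Those of Tnfrsf11b ran from −1.34 without control replicate 2 to 0.27 without control replicate 3. The cause of these changes was not tested. No paired analysis was possible because the labels give no replicate numbers shared between the groups.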
